A study of Mus musculus with 13 samples.

Results

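The collagen genes of the cerebral meninges were examined in newborn mice lacking platelet-derived growth factor C and 1 functional copy of its receptor gene. The members were all genes whose symbol has the form Col, a number, a and a number in the annotation table of the array, each read from the brightest of the probe sets that carry only that symbol. This gave 44 of the 19938 genes tested. They were grouped by the structure of their products into 11 fibrillar, 8 basement membrane, 9 FACIT and 16 other collagen genes. Of these, 42 had 1 such probe set, and Col6a5 and Col6a6 had several.

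RNA of the meninges freed from the cerebrum of each pup was measured on its own Affymetrix Mouse Gene 1.0 ST array. The 4 mutants were Pdgfc-/-; Pdgfra GFP/+, in which both copies of Pdgfc are inactive in every cell and 1 copy of Pdgfra carries a GFP reporter in place of the functional gene. The 9 controls were all the other pups of the same litter and pooled 5 genotypes, 3 of them with both copies of Pdgfra intact (Pdgfc+/+, Pdgfc+/- or Pdgfc-/-) and the other two with 1 reporter allele (Pdgfra GFP/+ together with Pdgfc+/+ or with Pdgfc+/-). The labels do not say which control had which genotype, so some controls lacked Pdgfc and some carried the reporter allele, as the mutants did. All mice were C57BL6 newborns from 1 litter.

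Collagens are the main proteins of the extracellular matrix. Each is a trimer of alpha chains wound into a triple helix. Fibrillar collagens such as types I, III and V assemble into the fibres of connective tissue, and FACITs (fibril-associated collagens with interrupted triple helices) lie on the surface of these fibres. Type IV collagens build the network of basement membranes, where the multiplexins, types XV and XVIII, also reside. Meningeal fibroblasts make most of the fibrillar collagen around the brain and contribute to the pial basement membrane, to which the endfeet of radial glia attach. Endothelial and mural cells of the meningeal vessels make basement membrane collagens as well.

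Values are linear intensities, which the authors obtained with PLIER, and they have no unit beyond the brightness of a probe set. A gene is therefore compared between mice, and no gene is called more abundant than another. Log2 fold changes (mutants minus controls) were taken as differences of the mean log2(intensity + 16), which understates the change of dim genes. Standard errors (SE) and adjusted p come from limma, fitted to all 19938 genes with Benjamini-Hochberg adjustment over them, and a gene rose or fell where its adjusted p was under 0.05. Across all genes, 1710 rose, which is 8.58%, and 1258 fell, which is 6.31%.

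Both targeted genes were lower in the mutants. Pdgfc read between 22.8 and 29.3 in mutants and between 5.88 and 275 in controls (log2 fold change -1.84, limma adjusted p = 0.00772), and control 2 lay below every mutant. Pdgfra read between 788 and 1561 in mutants and between 1039 and 2255 in controls (log2 fold change -0.71, limma adjusted p = 0.0276). The 4 mutants and controls 1, 5 and 8 had the male pattern of the sex-linked gene Xist, at 2.24 to 8.73 against 536 to 1020 in the other 6 controls. Genotype and sex were thus partly confounded, and results are also given against the 3 male-pattern controls alone. Array medians spanned 56.0 to 89.7 in mutants, compared with 44.1 to 89.0 in controls. Markers of meningeal fibroblasts were present in all mice, but 6 of 15 fell in the mutants and 9 did not pass. All 15 together summed to 20339 to 32013 in mutants against 33064 to 42567 in controls. All 12 neuronal markers rose, with summed intensities of 13995 to 17187 against 1482 to 4190. Of 12 endothelial markers 7 fell, with sums of 5789 to 7638 against 8182 to 17397, and of 6 border macrophage markers 5 fell. No marker of these 4 lists was at 0 in any mouse. Xist was not at 0 in the male-pattern mice either, so a value above 0 does not show that a gene is expressed. In such bulk tissue, fewer cells of a type and less RNA per cell cannot be told apart.

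Upstream sequences were available for 35 of the 44 genes from RefSeq (build GRCm38.p6). Those of 4 genes are shown, chosen from the genes with such a sequence. None was available for Col26a1 and Col12a1, which fell, or for Col1a1, which rose. Col3a1 rose, Col8a2 and Col4a5 fell, and Col4a6, which did not pass the test, lies head to head with Col4a5 on the X chromosome. Each is the stretch of 250 bases before the annotated start, 5′ to 3′ on the strand of the gene. Capitals mark matches on either strand to the CCAAT box (CCAAT or ATTGG), the TATA box (TATAAA or TTTATA) and the GC box (GGGCGG or CCGCCC). The last 2 GC box matches of Col8a2 overlap.
Col3a1, chr1:45311288-45311537, plus strand: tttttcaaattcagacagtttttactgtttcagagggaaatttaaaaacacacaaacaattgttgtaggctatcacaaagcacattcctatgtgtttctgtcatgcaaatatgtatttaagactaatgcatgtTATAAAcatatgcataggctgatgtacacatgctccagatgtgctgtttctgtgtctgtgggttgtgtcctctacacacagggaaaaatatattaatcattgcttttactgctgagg
Col8a2, chr4:126286544-126286793, plus strand: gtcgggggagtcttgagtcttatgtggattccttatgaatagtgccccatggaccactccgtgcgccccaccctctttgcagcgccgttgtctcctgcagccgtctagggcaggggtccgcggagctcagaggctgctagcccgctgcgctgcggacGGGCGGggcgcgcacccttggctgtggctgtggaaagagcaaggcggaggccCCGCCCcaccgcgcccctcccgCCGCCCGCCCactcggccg
Col4a5, chrX:141475169-141475418, plus strand: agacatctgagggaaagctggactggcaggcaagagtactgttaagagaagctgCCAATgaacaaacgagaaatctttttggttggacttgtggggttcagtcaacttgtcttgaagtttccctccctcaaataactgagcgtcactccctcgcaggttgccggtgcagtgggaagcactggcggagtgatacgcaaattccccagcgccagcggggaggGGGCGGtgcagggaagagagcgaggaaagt
Col4a6, chrX:141474077-141474326, minus strand: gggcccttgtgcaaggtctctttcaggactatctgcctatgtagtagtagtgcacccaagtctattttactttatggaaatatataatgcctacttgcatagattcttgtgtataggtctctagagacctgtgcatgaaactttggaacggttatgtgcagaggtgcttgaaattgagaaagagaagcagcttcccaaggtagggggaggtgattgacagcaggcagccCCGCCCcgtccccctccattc

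The Col3a1 window held 1 TATA box match and no other, and the Col8a2 window held 4 GC box matches and no other. Col4a5 had 1 CCAAT box and 1 GC box match, and Col4a6 had 1 GC box match. Among 32851 such windows of all genes, 33.8% held a CCAAT box match, 12.4% a TATA box match and 32.7% a GC box match. Among the 38 windows of the collagen genes, 13, 5 and 22 held them. The annotated starts of Col4a5 and Col4a6 are 1343 bases apart, and those of Col4a2 and Col4a1, which also run head to head, are 21 bases apart. The 22 bases from the start of Col4a2 to that of Col4a1 are shown on the plus strand, with a GC box match in capitals. Col4a2, on the plus strand, starts at the lower position, so by these annotated starts both genes are read through the stretch.
Col4a2 to Col4a1, chr8:11312805-11312826, plus strand: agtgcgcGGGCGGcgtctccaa

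Of the 44 collagen genes, 2 rose, 4 fell and 38 did not pass the test. The risers were Col3a1 and Col1a1. The genes that fell were Col26a1, Col8a2, Col4a5 and Col12a1. These counts stand beside 8.58% of all genes that rose and 6.31% that fell. The median log2 fold change of the collagen genes was 0.02, against 0.0043 for all genes, and single genes ranged from -1.04 to 0.53. At an unadjusted p under 0.05 in the same limma fit, 4 were higher and 7 lower, beside 12.4% and 11.2% of all genes. One collagen gene, Col26a1, fell by more than 2-fold, as did 0.792% of all genes. Every mutant lay below every control for 2 collagen genes, Col26a1 and Col8a2, as for 3.04% of all genes. Every mutant lay above every control for Col1a1 and Col14a1, as for 6.4% of all genes.

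**Figure D1:**
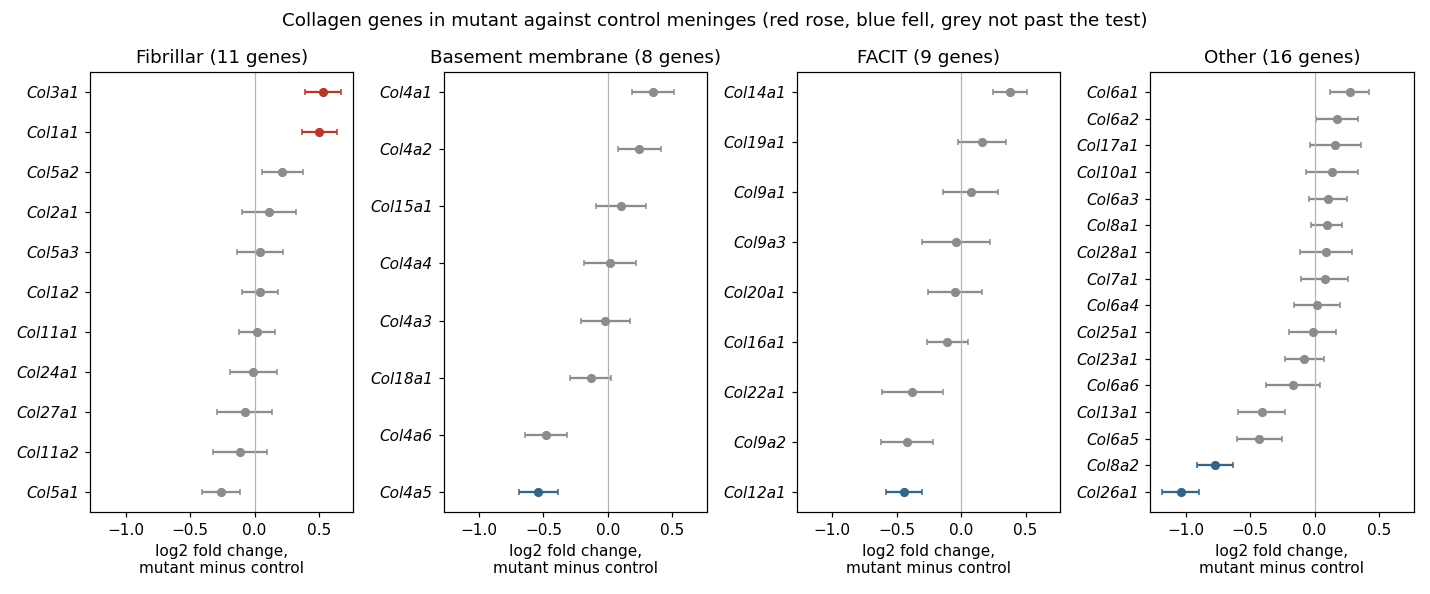
Log2 fold change (mutants minus controls, horizontal axis) of each of the 44 collagen genes, with 1 panel per structural group. Points are the limma estimates from 4 mutants and 9 controls and bars are 1 SE. Col3a1 and Col1a1 (red) lie at 0.53 and 0.50, and Col26a1, Col8a2, Col4a5 and Col12a1 (blue) lie at -1.04, -0.78, -0.54 and -0.44, while the other 38 (grey) did not pass the test.

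Among the 11 fibrillar collagen genes, 2 rose and none fell, and the median log2 fold change was 0.04. Col3a1, which encodes the chain of type III collagen, the ligand of the receptor Adgrg1 at the pial surface, read 3434, 4505, 3526 and 5183 in mutants 1 to 4. The 9 controls read 2303 at the lowest, 2821 at the median and 3593 at the highest. Mutants 2 and 4 lay above every control, while mutants 1 and 3 lay below the highest control but above the other 8. Col3a1 was 1.45-fold higher in the mutants (log2 fold change 0.53, SE 0.14, limma adjusted p = 0.0117). Col1a1, which encodes the alpha1 chain of type I collagen, the most abundant fibrillar collagen of connective tissue, read 3487, 3722, 3431 and 4744 in the mutants, against 2178, 2648 and 3310 at the lowest, median and highest of the controls. The groups did not overlap. Col1a1 was 1.42-fold higher (log2 fold change 0.50, SE 0.13, limma adjusted p = 0.0125).

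Col1a2, which encodes the alpha2 chain that joins 2 alpha1 chains in type I collagen, read 3950, 4992, 3711 and 5825 in the mutants, against 3777, 4528 and 5428 at the lowest, median and highest of the controls. The mutants spanned the whole range of the controls, and the log2 fold change of 0.04 (SE 0.14, limma adjusted p = 0.978) did not pass the test. Of the fibroblast markers, 6 of 15 fell and none rose beside these values, and their part in them was not tested. Against the 3 male-pattern controls alone, the log2 fold changes were 0.50 for Col3a1 and 0.47 for Col1a1, but neither call held (limma adjusted p = 0.148 and 0.181). Without mutant 4 neither gene passed (adjusted p = 0.0648 for Col3a1 and 0.0664 for Col1a1, limma), and Col3a1 also failed without mutant 2 (0.0522).

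The other 8 fibrillar genes did not pass the test. Those of type V, which starts and limits the growth of type I fibrils, had log2 fold changes of -0.26 for Col5a1, 0.22 for Col5a2 and 0.04 for Col5a3. Type XI genes, known from cartilage, stood at 0.02 for Col11a1 and -0.12 for Col11a2. Col2a1, the main collagen gene of cartilage, stood at 0.11, Col24a1 at -0.01 and Col27a1 at -0.07. None of the 8 cartilage markers and 1 of the 5 bone-forming markers, Alpl, passed the test, the latter as a fall.

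The basement membrane genes split in sign. Of the 8, none rose and 1 fell, and the median log2 fold change was -0.0016. Col4a5, which encodes a type IV chain of a second kind of network than that of Col4a1 and Col4a2, read 208, 214, 188 and 332 in the mutants, against 279, 361 and 414 at the lowest, median and highest of the controls. Mutants 1 to 3 lay below every control and mutant 4 lay among them. Col4a5 was 1.45-fold lower (log2 fold change -0.54, SE 0.15, limma adjusted p = 0.0193). Its head-to-head neighbour Col4a6, whose chain joins that of Col4a5 in the same trimer, read 119, 138, 111 and 199 in the mutants, against 147, 214 and 256 in the controls. The same 3 mutants lay below every control. The log2 fold change of Col4a6 was -0.48 (SE 0.16), and it did not pass the test (limma adjusted p = 0.0564). Both genes are X-linked, and all mutants had the male pattern. Against the male-pattern controls alone, the log2 fold changes were -0.52 for Col4a5 and -0.47 for Col4a6, but the fall of Col4a5 no longer passed (limma adjusted p = 0.157). The call of Col4a5 was also lost without mutant 1, 2 or 3 (adjusted p = 0.0733, 0.0683 and 0.0882, limma).

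Col4a1 and Col4a2, which encode the chains of the type IV trimer present in nearly all basement membranes, did not pass the test. Col4a1 read 1087, 1120, 1069 and 1452 in the mutants, against 686, 933 and 1273 at the lowest, median and highest of the controls. Mutant 4 lay above every control and the other 3 mutants within their range (log2 fold change 0.35, SE 0.16, limma adjusted p = 0.199). Col4a2 read 1289, 1328, 1249 and 1688 in the mutants, against 803, 1204 and 1642 in the controls (log2 fold change 0.24, SE 0.17, limma adjusted p = 0.477). Again only mutant 4 lay outside the controls. Of the endothelial markers, which label cells that make these chains, 7 of 12 fell and none rose. Of the 10 markers of mural cells, which make basement membrane collagens as well, none rose or fell. The part of either list in the values was not tested.

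Col18a1, the multiplexin gene whose product releases endostatin, read 327, 303, 269 and 371 in the mutants, against 211, 376 and 463 in the controls, and all mutants lay within the range of the controls (log2 fold change -0.13, SE 0.16, limma adjusted p = 0.817). Col15a1, the other multiplexin gene, stood at a log2 fold change of 0.10. Col4a3 and Col4a4, known from the basement membrane of the kidney glomerulus, stood at -0.02 and 0.02.

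Of the 9 FACIT genes, 1 fell and none rose, with a median log2 fold change of -0.05. Col12a1, whose product coats type I fibrils, read 337, 347, 306 and 477 in the mutants, against 434, 502 and 608 at the lowest, median and highest of the controls. Mutants 1 to 3 lay below every control, and mutant 4 lay within their range. Col12a1 was 1.36-fold lower (log2 fold change -0.44, SE 0.14, limma adjusted p = 0.0337). Its call was lost against the male-pattern controls (log2 fold change -0.47, limma adjusted p = 0.198) and without any of mutants 1, 2 and 3 or of controls 4, 5, 8 and 9 (adjusted p up to 0.130).

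The related gene Col14a1, whose product also coats type I fibrils, moved the other way. It read 360, 387, 355 and 414 in the mutants, against 214, 303 and 350 in the controls, without overlap. With a log2 fold change of 0.38 (SE 0.13), it did not pass the test (limma adjusted p = 0.0627). Col16a1 read 195, 191, 154 and 244 in the mutants, against 161, 236 and 265 in the controls, and 3 of the 4 mutants lay within the range of the controls (log2 fold change -0.11, limma adjusted p = 0.874). None of the others passed. Col9a1, Col9a2 and Col9a3, the chains of cartilage type IX collagen, stood at log2 fold changes of 0.07, -0.42 and -0.04, Col19a1 at 0.16, Col20a1 at -0.05 and Col22a1 at -0.38.

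**Figure D2:**
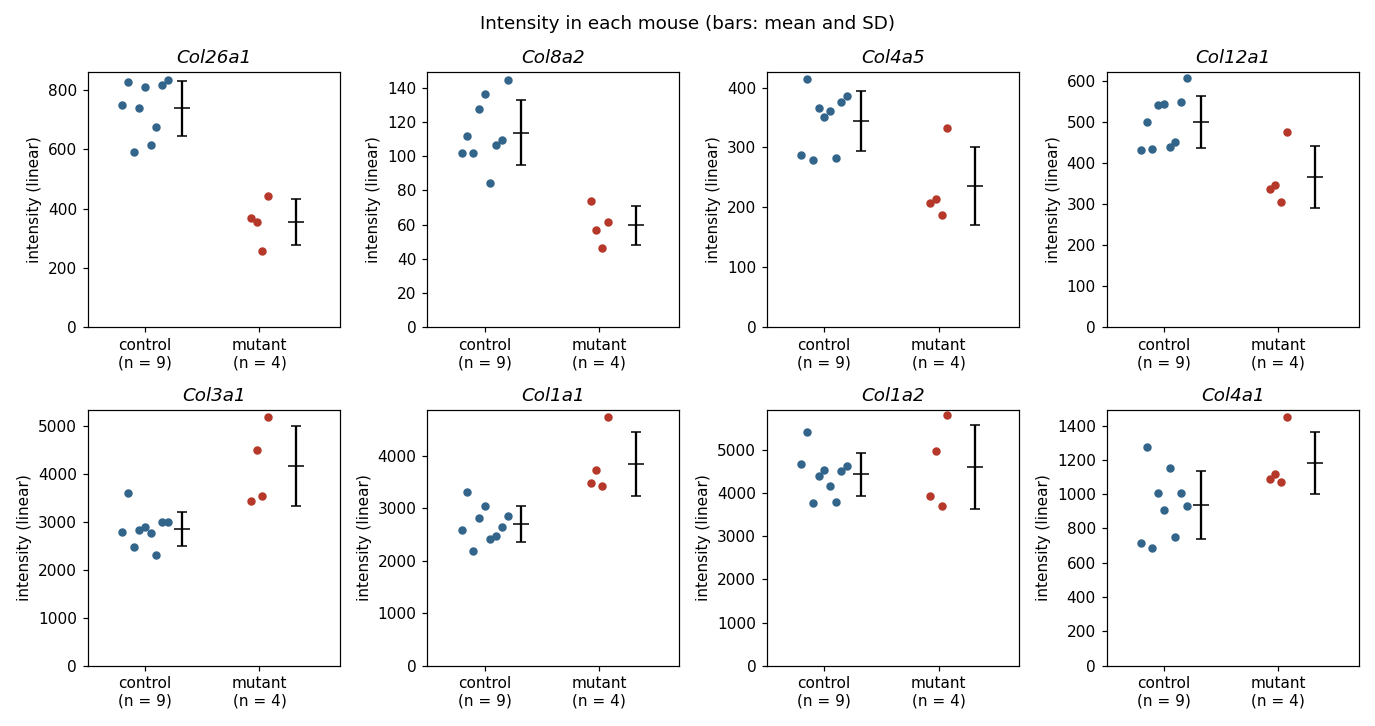
Linear intensity (vertical axis, from 0) of 8 collagen genes in each of the 9 controls (blue) and 4 mutants (red), with the mean and SD of each group as bars. The upper row holds the 4 genes that fell, with no overlap for Col26a1 and Col8a2 and with mutant 4 among the controls for Col4a5 and Col12a1. The lower row holds Col3a1 and Col1a1, which rose, and Col1a2 and Col4a1, which did not pass the test.

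The 16 other collagen genes included the largest changes, both falls, while their median log2 fold change was 0.05 and none rose. Col26a1, a collagen gene known mainly from the developing testis and ovary, read 368, 356, 257 and 442 in the mutants, against 591, 749 and 833 at the lowest, median and highest of the controls. All mutants lay below all controls. Mean intensities were 356 ± 76.2 (SD, n = 4) and 740 ± 92.8 (SD, n = 9), and on the log2(intensity + 16) scale the fall was 2.05-fold (log2 fold change -1.04, SE 0.14, limma adjusted p = 2.35e-05). This call held in all 30 alternative settings, among them the male-pattern controls alone (log2 fold change -1.14, limma adjusted p = 0.00016).

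Col8a2, which encodes a chain of the short-chain type VIII collagen, known from vessel walls and from the basement membrane of the corneal endothelium, read 74.0, 56.8, 46.4 and 61.6 in the mutants, against 84.5, 109 and 144 in the controls. The groups did not overlap here either. Col8a2 was 1.71-fold lower on the log2(intensity + 16) scale (log2 fold change -0.78, SE 0.14, limma adjusted p = 4.43e-04). Against the male-pattern controls the log2 fold change was -0.80 (limma adjusted p = 0.00704). Its partner Col8a1 read 253, 326, 257 and 330 in the mutants, against 237, 271 and 308 in the controls, with a log2 fold change of 0.09 (SE 0.12, limma adjusted p = 0.843), and mutants 2 and 4 lay above every control. Of the endothelial list 7 of 12 and of the fibroblast list 6 of 15 genes fell beside Col8a2, and their part was not tested.

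Type VI collagen forms beaded filaments near cell surfaces, and none of its 6 genes passed the test. Col6a1 read 1176, 1398, 1125 and 1871 in the mutants, against 891, 1217 and 1349 in the controls (log2 fold change 0.27, limma adjusted p = 0.324). Col6a2 read 656, 646, 559 and 956 in the mutants, against 451, 655 and 750 (log2 fold change 0.17). Col6a3 read 657, 644, 547 and 903, against 500, 653 and 764 (log2 fold change 0.10). In all 3 genes mutant 4 was above every control. Col6a4 stood at 0.02, Col6a5 at -0.43 (limma adjusted p = 0.124) and Col6a6 at -0.17.

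Of the transmembrane collagens, Col13a1 stood at a log2 fold change of -0.41 (limma adjusted p = 0.166), Col17a1 at 0.16, Col23a1 at -0.08 and Col25a1 at -0.02. Col7a1, the gene of the anchoring fibrils of skin, stood at 0.08, Col10a1, the gene of hypertrophic cartilage, at 0.14, and Col28a1 at 0.09. None of these 7 passed the test.

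The mutants also differed among themselves. Mutant 1 read 2841 for the choroid plexus marker Ttr, against 55.3 to 168 in the other 12 mice. The rest of this marker list was mixed in mutant 1. Folr1 (99.6) and Sostdc1 (239) were the highest of all mice. Kcnj13 (111) was the lowest of all mice, Clic6 (228) the lowest of the mutants, and Otx2 (46.0) lay within the range of the controls. The part of choroid plexus RNA in the collagen values was not tested. Without mutant 1, 2 collagen genes rose and 2, Col26a1 and Col8a2, fell. Of the 23 collagen genes with a control mean of at least 200, mutant 4 was the highest of the mutants in 20 and mutant 1 in 3. Of the 21 with a control mean under 200, mutant 1 was the highest in 16 and mutant 4 in 5. The median intensity of all probe sets was 89.7 for mutant 1 and 85.9 for mutant 4. The order of the mutants thus differed between the brighter and the dimmer probe sets.

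Pairs of collagen genes were then compared within each mouse, since brightness common to 2 genes cancels in their log2 ratio. Array brightness need not be common to probe sets of unlike brightness, given the differing order of the mutants above. The ratio itself also depends on the probes, so only its difference between mutants and controls is read. For 11 pairs it was tested two-sided against every one of the 715 ways to divide the 13 mice into 4 and 9 (exact permutation), with p adjusted over the 11 pairs. The ratio differed in 5 pairs. The pairs were chosen with earlier results of these data known. Some of the 11 hold a gene that rose or fell above, so their p is not evidence apart from that call.

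Within type I collagen, the log2 ratio of Col1a2 to Col1a1 lay between 0.11 and 0.42 in the mutants but between 0.57 and 0.85 in the controls. The groups did not overlap, and the difference of -0.46 (95% interval -0.60 to -0.32) had an exact permutation p of 0.0014, the smallest that the splits can give (adjusted p = 0.00513). Col1a1 was thus higher relative to the other chain of its trimer in every mutant. Within type VIII, the log2 ratio of Col8a2 to Col8a1 ran from -2.23 to -1.58 in mutants and from -1.37 to -0.95 in controls. The difference was -0.87 (95% interval -1.16 to -0.58, exact permutation test, adjusted p = 0.00513). For type V, the ratio of Col5a2 to Col5a1 was higher in the mutants, at 1.11 to 1.60 against 0.78 to 1.16, with mutant 1 among the controls (difference 0.48, 95% interval 0.27 to 0.68, exact permutation test, adjusted p = 0.00769).

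In the basement membrane, the ratio of Col4a2 to Col4a1 lay between 0.21 and 0.24 in the mutants and between 0.22 and 0.37 in the controls, with an overlap. The difference was small, at -0.10 (95% interval -0.16 to -0.04, exact permutation test, adjusted p = 0.0123). Col18a1 was lower relative to Col4a1 in every mutant, with ratios of -1.93 to -1.69 against -1.65 to -1.18 (difference -0.48, 95% interval -0.69 to -0.27, exact permutation test, adjusted p = 0.00513). Against the 3 male-pattern controls alone the 5 differences were -0.48, -0.78, 0.48, -0.14 and -0.60, in the order given here. With 4 against 3 mice the exact p cannot fall below 0.0286, and the adjusted p of these 5 pairs lay between 0.105 and 0.126.

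The other 6 pairs did not pass. Col4a6 and Col4a5, which share a trimer and lie head to head, differed by 0.06 (95% interval -0.04 to 0.16), and Col4a4 and Col4a3 by 0.03 (-0.20 to 0.27). The difference was 0.03 for Col3a1 over Col1a1 (-0.12 to 0.18), -0.16 for Col4a1 over Col1a1 (-0.43 to 0.11), -0.25 for Col15a1 over Col4a1 (-0.68 to 0.19) and -0.10 for Col6a2 over Col6a1 (-0.21 to 0.01). The intervals bound how far these ratios may differ only if both groups have equal spread. For Col4a1 over Col1a1 the SD was 0.025 in mutants and 0.238 in controls. A missed threshold does not show that the genes changed alike.

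**Figure D3:**
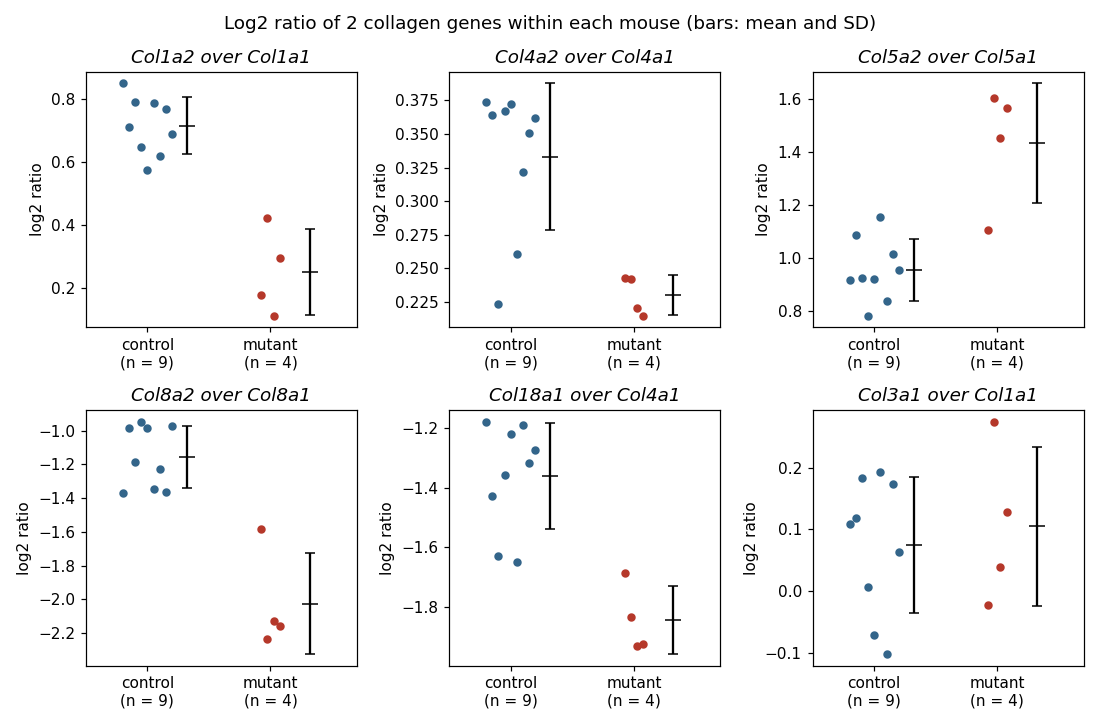
Log2 ratio of 2 collagen genes (vertical axis) within each of the 9 controls (blue) and 4 mutants (red), for 6 of the 11 pairs, with the mean and SD of each group as bars. The vertical axes differ in scale and do not start at 0. The ratio was lower in the mutants in 4 of the pairs shown, by -0.10 for Col4a2 over Col4a1 up to -0.87 for Col8a2 over Col8a1, and higher for Col5a2 over Col5a1 (0.48), while Col3a1 over Col1a1 (0.03) did not pass.

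Collagen chains are hydroxylated, glycosylated and folded in the endoplasmic reticulum, trimmed outside the cell, cross-linked, and bound by receptors. Of 44 listed genes with these roles 40 were tested, of which 2 rose, 7 fell and 31 did not pass, beside 8.58% of all genes that rose and 6.31% that fell. Their median log2 fold change was -0.24, against 0.0043 for all genes.

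In the modification and secretion list, 2 of 19 genes fell and none rose (median log2 fold change -0.28). Fkbp14, a prolyl isomerase of the endoplasmic reticulum, read 166, 316, 230 and 269 in the mutants, against 314, 378 and 440 at the lowest, median and highest of the controls. Mutant 2 lay at the lower edge of the controls and the other 3 below them (log2 fold change -0.62, SE 0.15, limma adjusted p = 0.00794). P3h4, which takes part in lysyl hydroxylation of collagen, read 200, 265, 180 and 273, against 281, 313 and 327, so that every mutant lay below every control (log2 fold change -0.42, SE 0.12, limma adjusted p = 0.0247). The lysyl hydroxylase gene Plod1 stood at -0.38 (limma adjusted p = 0.0509) and the prolyl hydroxylase gene P4ha1 at -0.38 (0.0780).

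Of the 7 processing genes, Adamts3 rose and none fell (median log2 fold change 0.05). Adamts3 encodes an enzyme that cuts off amino-terminal propeptides. It read 171, 124, 104 and 155 in the mutants, against 47.5, 92.7 and 117 in the controls, and mutant 3 lay among the controls (log2 fold change 0.57, SE 0.19, limma adjusted p = 0.0486). This call was lost without any of mutants 1, 2 and 4 or of 6 of the controls, with adjusted p up to 0.191. Bmp1, the carboxy-terminal propeptidase gene, stood at 0.27, its enhancer Pcolce at 0.11 and Adamts14 at -0.12, and none of these passed. Of the 4 cross-linking enzymes, Loxl3 fell, at 127, 144, 96.5 and 144 in the mutants against 137, 192 and 237 in the controls (log2 fold change -0.56, SE 0.15, limma adjusted p = 0.0114). Lox, Loxl1 and Loxl4 stood at 0.29, -0.29 and 0.06 and did not pass.

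Among 10 collagen receptors, 1 rose and 4 fell (median log2 fold change -0.37). Adgrg1, the adhesion receptor of radial glia and neural progenitors that binds type III collagen, read 144, 112, 115 and 172 in the mutants, against 54.5, 69.8 and 111 in the controls, without overlap. It was 1.68-fold higher (log2 fold change 0.75, SE 0.15, limma adjusted p = 0.00164), and against the male-pattern controls the log2 fold change was 0.87 (limma adjusted p = 0.00343). The neuronal list, of which all 12 genes rose, moved with it, and its part in the rise was not tested.

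Itga2, the alpha2 chain of an integrin that binds collagen, read 63.9, 60.1, 53.4 and 58.8 in the mutants, against 70.7, 116 and 165 in the controls, also without overlap (log2 fold change -0.76, SE 0.17, limma adjusted p = 0.00334). Ddr2, a receptor tyrosine kinase for fibrillar collagens, read 768, 1129, 765 and 1298 in the mutants, against 1281, 1430 and 1526 in the controls, with mutant 4 among them (log2 fold change -0.54, SE 0.14, limma adjusted p = 0.0108). Mrc2, the endocytic receptor that takes up collagen, stood at -0.43 (limma adjusted p = 0.0350), and Itga10, another integrin chain for collagen, at -0.57 (0.0465). Against the male-pattern controls Itga2 passed (limma adjusted p = 0.0118), while Ddr2 (0.0745), Mrc2 (0.165) and Itga10 (0.146) did not. Omission of mutant 1 ended the calls of Ddr2 (0.0696), P3h4 (0.106) and Fkbp14 (0.0593), and omission of mutant 3 those of Ddr2 (0.0592), P3h4 (0.114) and Loxl3 (0.0634), all by limma. Mrc2 kept its call in 5 of the 13 omissions of a single mouse and lost it without mutant 1, 2 or 3 or control 2, 4, 5, 8 or 9 (limma adjusted p up to 0.162). Itga10 kept its call in 4 of 13 and lost it without the same 8 mice or control 7 (limma adjusted p up to 0.189). The fibroblast list moved in the direction of these falls, and its part was not tested.

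**Figure D4:**
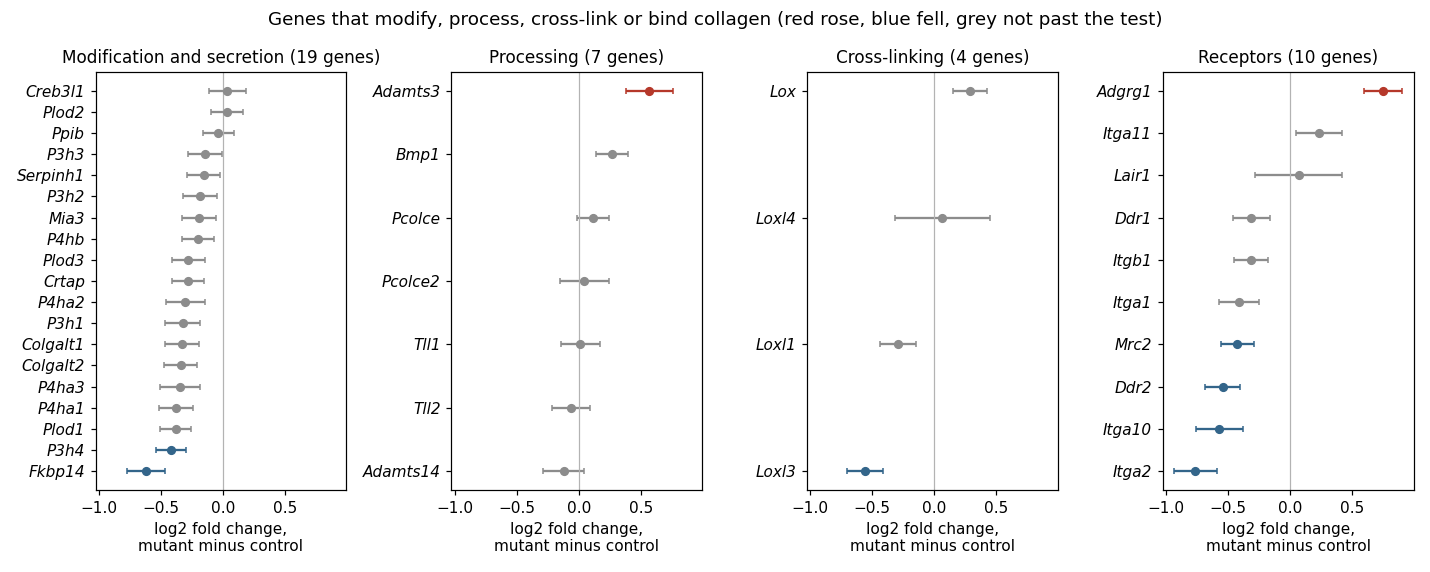
Log2 fold change (mutants minus controls, horizontal axis) of the 40 tested genes that modify, process, cross-link or bind collagen, with 1 panel per list. Points are limma estimates and bars are 1 SE. Of the 19 modification and secretion genes only Creb3l1 and Plod2 lie above 0, at 0.04 and 0.03, and Adgrg1 at 0.75 and Adamts3 at 0.57 are the 2 genes that rose.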

How the data were processed

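The authors deposited 1 table of linear intensity values for 35557 probe sets in 13 mice, made with PLIER. The version, the background step and the scaling between arrays are not given in the sources used here. Array medians differ, so the values were not brought to 1 distribution. Arrays have no read depth, and the number of mice limits the precision. Of the probe sets, 21789 carry 1 gene symbol in the platform annotation, 1621 several and 12147 are not listed there. Where a gene had several probe sets (999 genes), the one with the highest mean over all arrays was kept, which gave 19938 genes.

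Values were used as log2(intensity + 16). Mutants and controls were compared by two-sided tests in limma 3.58.1 (R 4.3.3), using lmFit, eBayes and Benjamini-Hochberg adjustment, and called at an adjusted p under 0.05. The fit was tested on simulated data. Plots come from Python 3.11.15 with matplotlib 3.10.9. The members, gene lists and chain pairs were chosen with earlier results of these data known. Named in full are the collagen genes past the test and the 3 with the brightest probe sets in each group, and of each pathway list the 4 with the smallest adjusted p. Partner genes and Itga10 are named beside them.

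Alternatives were other constants (1 and 32), quantile normalization, arrays centred on their median or on either reference or meningeal fibroblast genes, filters on dim genes, averaged probe sets, the methods' t-test, unequal variances, array weights, an intensity trend with robust variances, the Xist level as a covariate, male-pattern controls alone, omission of the 4 arrays of lowest median, a replicate block, and omission of each mouse in turn.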

Additional observations from a re-analysis of the deposited data

Results flagged for a closer look

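Col4a1 in mutant 4 read 1452, apart from the other 3 mutants, of which the nearest read 1120. On the log2(intensity + 16) scale the gap was 0.848 of the range of the 4 mutants. It was the only such value among the 88 groups of mice looked at, which are the mutants and the controls for each of the 44 collagen genes, and chance flags about 1 in 20 groups. Col4a1 did not pass the test with this mouse (limma adjusted p = 0.199) or without it (0.520).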

How the results depend on the processing

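The fall of Col26a1 was called in all 30 alternatives. That of Col8a2 was called in all 13 that left out 1 mouse and in 15 of the 16 others that tested it, but not centred on meningeal fibroblast genes (log2 fold change -0.20, adjusted p = 0.255). The other counts depended on the scaling and on the model. Collagen genes that rose (2) and fell (4) numbered 4 and 10 after quantile normalization, 2 and 10 centred on the array median, 7 and 2 centred on reference genes, 29 and 1 centred on meningeal fibroblast genes, 1 and 2 with unequal variances, 3 and 10 with array weights, 0 and 2 adjusted for the Xist level, 0 and 2 against the male-pattern controls, and 0 and 2 with a replicate block. Leaving out 1 mouse gave 0 to 3 and 2 to 5. Of all genes, 13.4% rose and 18.1% fell after quantile normalization, and 9.07% and 14.4% centred on the array median. The shares were 20.1% and 3.86% centred on reference genes, and 76.8% and 1.26% centred on meningeal fibroblast genes. They were 5.71% and 2.01% with unequal variances, and 10.2% and 10.1% with array weights. Adjusted for the Xist level, 5.74% rose and 3.03% fell. Against the male-pattern controls 5.97% and 3.23% did so, and with a replicate block 6.44% and 2.73%. Without 1 mouse the shares were 6.68% to 9.55% and 3.9% to 7.47%. Pathway genes that rose (2) and fell (7) numbered 4 and 23, 2 and 19, 6 and 4, 24 and 0, 1 and 1, 2 and 13, 1 and 2, 1 and 3, and 1 and 1 in the same order, and 1 to 2 and 2 to 9 without 1 mouse. Only 1 pathway gene rose with a constant of 1 or with the methods' t-test after Benjamini-Hochberg adjustment. Without the dimmest 50% of genes, 0 rose. Of all genes, 8.06%, 8.41% and 13.6% rose in these settings. Pairs with a differing ratio (5) were 0 against the male-pattern controls and 5 to 6 without 1 mouse. The 0 is no sign of a changed ratio, since these 5 pairs alone could not pass with so few mice.

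Centring on meningeal fibroblast genes shifted the median of all genes to 0.58 and reversed Col12a1 (0.13, adjusted p = 0.275), Col4a5 (0.040, 0.739), P3h4 (0.16, 0.0908), Loxl3 (0.018, 0.892), Ddr2 (0.035, 0.704), Mrc2 (0.15, 0.158) and Itga10 (0.0069, 0.973). The median was 0.21 centred on reference genes. Of these, 3 of the 10 tested fell and 8 had a negative log2 fold change in the main fit. Col14a1 passed as a rise in 10 of the 30 alternatives, 1 of them without 1 mouse, among them unequal variances (adjusted p = 0.0190). Col4a6 passed as a fall in 10, 3 of them without 1 mouse, among them quantile normalization (3.02e-04). By the methods' t-test, 1 collagen gene, Col26a1, passed with a fold over 2, beside 812 of all 19938 genes. All adjusted p here are from limma unless another test is named. The deviations of mice sharing a number had correlations of -0.344, 0.162, 0.307 and -0.0926. These were not compared with mice of different numbers, so they cannot show whether the numbers pair mice. With the block the calls of Col1a1 (0.0864), Col3a1 (0.0881), Col4a5 (0.107) and Col12a1 (0.146) were lost. Controls whose number no mutant shares add nothing to the comparison in that fit. It thus rests on fewer mice than the main fit, and the lost calls cannot show that the numbers pair mice. The causes of these changes were not tested.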
